A study of Mus musculus with 19 samples.

Results

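Oral tumours from mice given regorafenib were compared with oral tumours from mice given an agonist antibody against CD40, over all genes. Every library that the sample labels place in these 2 groups was taken, which gave 7 of the 19 libraries of the series: 4 with regorafenib and 3 with anti-CD40. All mice were C57BL/6J and had drunk water with 4-nitroquinoline 1-oxide (4NQO), a DNA-damaging carcinogen, at 100 µg/ml for 10 weeks from the age of 6 weeks, and then plain water until the end. Regorafenib was given at 5 mg/kg/day. The labels used here state no dose or schedule for the antibody and no time of day of tissue collection. The vehicle group (4 libraries, same strain and carcinogen) is used below as a reference. Polyadenylated RNA was sequenced from tissue labelled as oral squamous cell carcinoma. No label states that the libraries came from separate animals. The p-values therefore reflect only the spread among libraries, estimated over all 19 of the series, and part of it may be technical.

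Regorafenib is a small molecule that blocks several kinases, among them the VEGF and PDGF receptors, and it is used against solid tumours for its action on vessels and stroma. CD40 is a receptor of the tumour necrosis factor family on dendritic cells, macrophages and B cells. When it is engaged, TRAF proteins pass the signal to NF-kappa-B, and the cell raises costimulatory molecules and cytokines that prime T cells. One treatment thus acts on receptor kinases and the other on antigen-presenting cells.

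The 7 libraries held between 17096257 (regorafenib 3) and 23330189 counts (anti-CD40 3). Levels are scaled counts given as CPM, with library size as the denominator. The tissue carried squamous markers: Krt5 was at 2560 to 3580 CPM with regorafenib and 2030 to 2700 CPM with anti-CD40, and Trp63 at 253 to 296 and 226 to 293 CPM. Other tissues were present too, and unevenly. The 20 skeletal muscle genes listed summed to between 32500 and 41800 CPM with regorafenib, and to 55700, 67500 and 43700 CPM in anti-CD40 1, 2 and 3. The vehicle libraries lay between 49000 and 57400 CPM. Salivary gland genes summed to 7270 and 6240 CPM in regorafenib 2 and 3 and to 2300 CPM in anti-CD40 2, against 46.3 to 471 CPM in the other 4. The first principal component of the 7 libraries held 58.5% of the variance and put these 3 gland-rich libraries on 1 side. Pgc, which encodes a pepsinogen of the stomach, was high in all 4 regorafenib libraries.

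**Figure D1:**
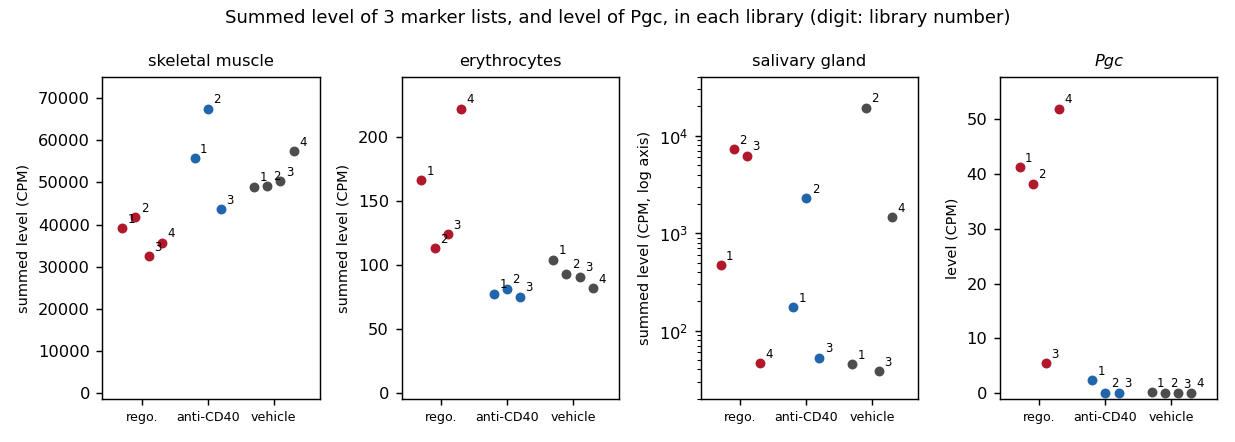
Summed level in CPM of the skeletal muscle, erythrocyte and salivary gland lists (the last on a log axis) and level of Pgc in CPM, 1 point per library, with the library number beside it. Of the 7 treated libraries, anti-CD40 1 and 2 had the highest muscle sums (vehicle 4 lay between them), and Pgc ran from 5.46 to 51.9 CPM with regorafenib.

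Of 16909 genes tested, 340 differed between regorafenib and anti-CD40 (edgeR quasi-likelihood test, Benjamini-Hochberg adjusted p under 0.05), which is 2.01% of the genes tested. With regorafenib 59 genes (0.349%) were higher and 281 (1.66%) lower. The differences were small: their median size was 0.54 on the log2 scale, and 12 genes in each direction differed by at least 2-fold. At an unadjusted p under 0.05 there were 3306 genes, where 845 would be expected if none differed. In 1181 genes (6.98%) all 4 regorafenib libraries lay above all 3 anti-CD40 libraries, and in 1210 (7.16%) all lay below. The count of calls changed when single libraries were left out and when muscle genes entered the fit. It was 0 without anti-CD40 2, 1776 without anti-CD40 3, 49 without anti-CD40 1, and 133, 117 and 44 without regorafenib 1, 3 and 4. With the mean level of the muscle genes as a covariate no gene passed, and the median difference of the 340 genes, in the direction first seen, fell to 0.33. All 20 genes of this covariate were themselves lower with regorafenib. It therefore cannot separate muscle content from an effect of the treatment. Without the 2 libraries called muscle-rich here (anti-CD40 1 and 2, the highest of the 7), that median was 0.31. This run, also used below, left only anti-CD40 3 in its group. The muscle sum of anti-CD40 3 (43700 CPM) lay below the vehicle range of 49000 to 57400 CPM, and that of anti-CD40 1 (55700 CPM) inside it. Smaller differences in this run therefore compare regorafenib with 1 muscle-poor library. Without the 3 gland-rich libraries 6 genes passed: Clps, Pla2g1b, Atp4a, Sgcd, Akap6 and Fscn1. In a fit of these 2 groups alone 2 genes passed, the muscle genes Ky and Myom3. Each gene below that is said to differ passed in the fit of all 19 libraries. None of the 34 named genes that passed did so with the muscle covariate, and none in every run with 1 library left out. None could, since no gene at all passed with that covariate or without anti-CD40 2. Of the 7 runs with 1 library left out, Sgcd, Ryr1, Myh4, Tef, Nr1d2, Agbl1, Clps, Atp4a and Pla2g1b passed in 6. Hba-a1 and Ddr2 passed in 1.

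**Figure D2:**
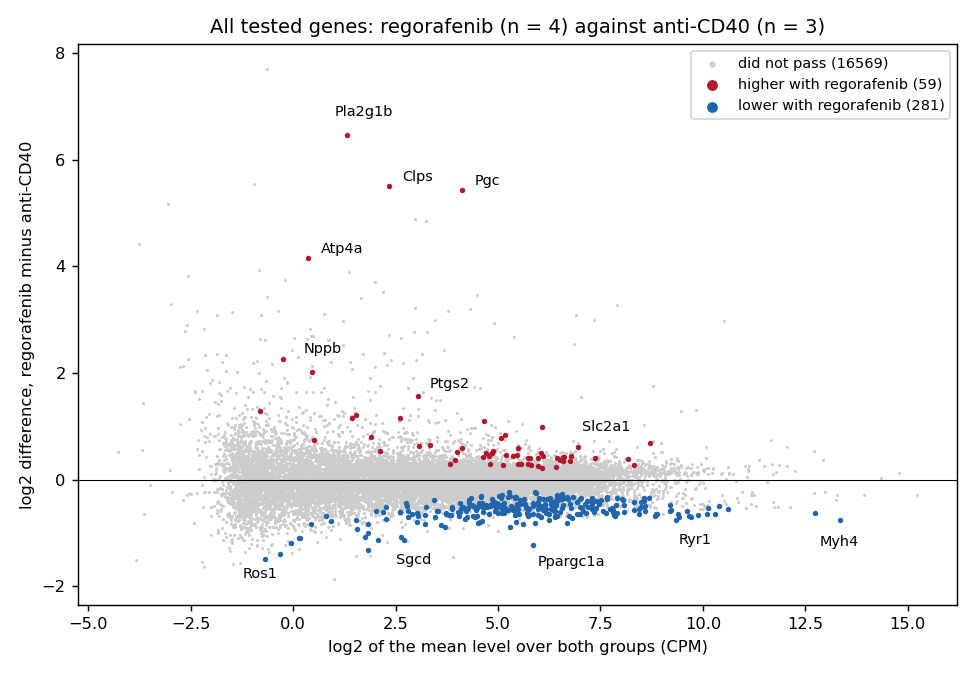
Log2 difference (regorafenib minus anti-CD40) of each tested gene against its log2 mean level in CPM. Red and blue points are the 59 genes higher and 281 genes lower with regorafenib that passed the test, and grey points are genes that did not pass.

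Genes of skeletal muscle fibres were lower in the regorafenib libraries. Of 20 listed muscle genes 6 passed as lower and none as higher, all 20 had a difference below 0, and the median was -0.53 (0.01 over all genes tested). Groups did not overlap in 8 of the 20, all lower with regorafenib. Over all genes tested, 1.66% passed as lower and 7.16% were lower without overlap. Ryr1, the calcium release channel of the sarcoplasmic reticulum, was at 662, 669, 621 and 587 CPM with regorafenib and at 970, 1240 and 898 CPM with anti-CD40. Every regorafenib library was below every anti-CD40 library, and the log2 difference was -0.71 ± 0.11 (SE, adjusted p = 0.0061). Myh4, the heavy chain of fast fibres, was at 7470, 8380, 7410 and 7680 CPM against 12000, 15800 and 11200 CPM (-0.75 ± 0.14, adjusted p = 0.0124). Neb, the giant nebulin that sits along thin filaments, was at 1080, 1020, 945 and 872 CPM against 1560, 1710 and 1290 CPM (-0.64 ± 0.11, adjusted p = 0.0124). In both genes the groups were separate, and anti-CD40 2 was the highest library. The others that passed were Cacna1s, the voltage sensor of the muscle calcium channel (-0.67), the calcium pump Atp2a1 (-0.63) and the fast light chain Mylpf (-0.50). Acta1, skeletal actin, did not pass: 4020, 4290, 3060 and 3360 CPM against 5460, 6370 and 3990 CPM overlapped (-0.52 ± 0.16, adjusted p = 0.0843). The muscle median was -0.51, -0.36 and -0.68 without anti-CD40 1, 2 and 3, with 3, 0 and 16 members passing, and -0.11 without both muscle-rich libraries. In bulk tissue, fewer muscle fibres and less RNA per fibre cannot be told apart.

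Several of the widest falls were in genes known from muscle. Sgcd, which encodes delta-sarcoglycan of the dystrophin complex, was at 3.5, 4.78, 4.67 and 3.32 CPM with regorafenib and 8.25, 10.5 and 8.27 CPM with anti-CD40. Its groups lay far apart for their spread, and the log2 difference was -1.14 ± 0.16 (adjusted p = 0.00484). Capn3, the muscle calpain, was at 2.15 ± 0.219 CPM (SD, n = 4) against 4.54 ± 1.41 CPM (n = 3), a log2 difference of -1.07 (edgeR adjusted p = 0.0141). Ppargc1a encodes PGC-1-alpha, a coactivator that drives mitochondrial genes. It was at 38.6, 37, 33.5 and 30.5 CPM with regorafenib and at 75.7, 116 and 52.7 CPM with anti-CD40 (-1.22 ± 0.23, adjusted p = 0.0157). The regorafenib libraries were close together, while anti-CD40 2 had more than the other anti-CD40 libraries. Of 18 genes of oxidative phosphorylation 1 passed (1.66% of all genes tested passed as lower). It was Ndufs1, a subunit of complex I, at 308 ± 16.1 against 411 ± 70.4 CPM (SD). All 18 were below 0 (median -0.29). The list median changed with the fit: it was -0.06 with the muscle covariate and -0.18 without anti-CD40 2, with no member passing in either. It was 0 without the muscle-rich libraries, which left 1 anti-CD40 library. Without anti-CD40 3, 15 members passed. The others among the 10 widest falls were Ros1 and Erbb4, both receptor tyrosine kinases, the chloride channel Best3, the potassium channel subunit Kcng4, the carboxypeptidase Agbl1, Schip1 and Lsmem1. Their log2 differences ran from -1.40 (Ros1, 0.434 ± 0.17 against 1.14 ± 0.213 CPM) to -0.92 (Erbb4). Counts were low for Ros1, 34 with regorafenib and 70 with anti-CD40, and for Schip1, 56 and 89. The 281 lower genes had a median exon length of 5779 bases, against 3061 for the 59 higher genes and 3942 for all genes tested. After offsets for length and GC content, 290 lower and 60 higher genes passed and these medians were 4375 and 5013.5 bases.

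**Figure D3:**
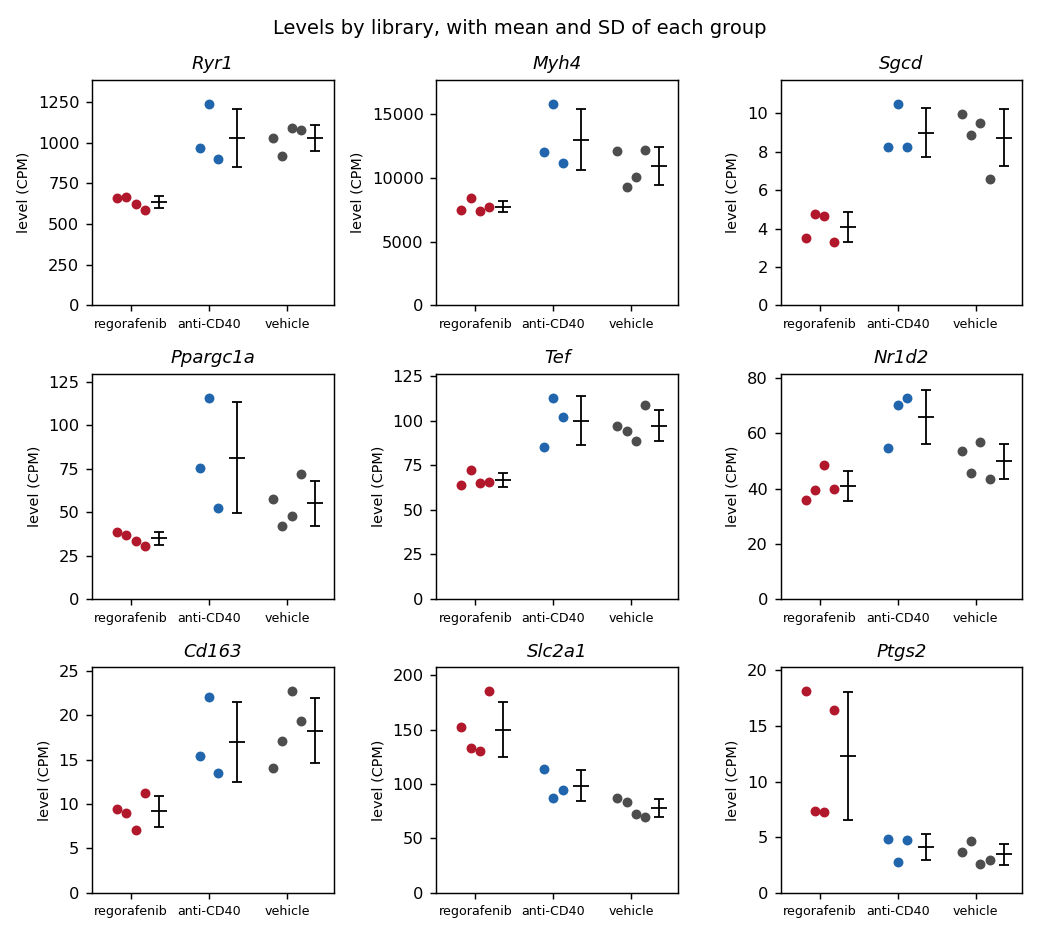
Level in CPM of 9 genes in each regorafenib, anti-CD40 and vehicle library (points), with the mean and SD of each group (bars); each axis starts at 0. Ryr1, Myh4, Sgcd, Ppargc1a, Tef, Nr1d2 and Cd163 were lower and Slc2a1 and Ptgs2 higher with regorafenib than with anti-CD40, with no overlap between those groups.

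In the circadian clock list 2 of 15 genes passed, both lower with regorafenib (1.66% of all genes tested passed as lower). Of the 15 genes 9 were below 0 and 6 above, with a median of -0.28. The clock runs as a loop: CLOCK and BMAL1 (Arntl) switch on genes through the E-box CACGTG, among them Per, Cry and PAR bZIP genes such as Tef, while REV-ERB proteins such as Nr1d2 repress through elements around AGGTCA. The promoters of the 2 genes that passed are shown with these letters in capitals (RefSeq promoter table, build GRCm38.p6, the 250 bases before the annotated start, 5′ to 3′). Tef has 2 annotated starts, at chr15:81802423-81802672, forward strand, and chr15:81811164-81811413, forward strand. Nr1d2 is at chr14:18239107-18239356, reverse strand. The capitals begin 127 and 138 bases before the 2 Tef starts and 77 bases before the Nr1d2 start.
Tef, start 1: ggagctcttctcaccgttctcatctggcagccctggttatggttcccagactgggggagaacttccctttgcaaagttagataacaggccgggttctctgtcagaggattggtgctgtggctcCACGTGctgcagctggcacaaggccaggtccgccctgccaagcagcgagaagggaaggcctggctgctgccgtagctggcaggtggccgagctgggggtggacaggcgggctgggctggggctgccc
Tef, start 2: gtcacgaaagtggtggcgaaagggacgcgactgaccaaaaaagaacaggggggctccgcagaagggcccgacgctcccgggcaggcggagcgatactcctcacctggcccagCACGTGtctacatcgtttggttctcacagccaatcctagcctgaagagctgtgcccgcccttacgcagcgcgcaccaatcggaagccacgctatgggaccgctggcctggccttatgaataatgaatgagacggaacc
Nr1d2: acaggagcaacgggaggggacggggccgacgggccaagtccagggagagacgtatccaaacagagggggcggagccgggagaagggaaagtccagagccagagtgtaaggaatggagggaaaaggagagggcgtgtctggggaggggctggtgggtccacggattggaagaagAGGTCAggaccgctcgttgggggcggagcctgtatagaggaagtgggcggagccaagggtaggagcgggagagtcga
Searched on both strands, CACGTG stands in 6.02% of all 32851 promoters of this length and AGGTCA in 14%. Among promoters of tested genes these shares are 7.75% and 11.2%. In the clock list, where 14 genes matched the table with 19 promoters, 5 promoters of 4 genes hold CACGTG (Ciart, Cry1, Per1 and Tef). AGGTCA stands in 4 promoters of 4 genes (Clock, Nfil3, Nr1d2 and Per1). A match describes the letters and is not evidence of binding.

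Tef was at 63.9, 72.4, 65.3 and 65.4 CPM with regorafenib and 85.5, 113 and 102 CPM with anti-CD40 (-0.58 ± 0.09, adjusted p = 0.0061). Nr1d2 was at 35.8, 39.3, 48.4 and 39.8 CPM against 54.6, 70.1 and 72.9 CPM (-0.69 ± 0.12, adjusted p = 0.00911). Neither gene's groups overlapped, and in Nr1d2 the highest library was anti-CD40 3, which had the least muscle of its group. Without both muscle-rich libraries Tef was at -0.62 and Nr1d2 at -0.84, neither passing (adjusted p = 0.126 for each), and the list median was -0.39. The close relative of Nr1d2, Nr1d1, had no overlap either, at 40.9 to 49.4 against 51 to 88 CPM, but did not pass (-0.64, adjusted p = 0.213). Dbp, a PAR bZIP gene like Tef, did not pass (-1.17, adjusted p = 0.0784), and its value rested on 12.5 CPM in anti-CD40 3 against 2.72 and 4.86 CPM in anti-CD40 1 and 2. With anti-CD40 3 as the lone library of its group, the Dbp difference was -2.06. Other targets of the loop went both ways without passing. Per2 was at 0.28, Cry1 at 0.21 and Nfil3 at 0.33 on the log2 scale. Per1 was at -0.41 and Ciart at -0.49, and Per3 (-0.49) and Cry2 (-0.28) were lower with no overlap between groups. In 5 of the 15 listed genes the groups did not overlap, all lower with regorafenib (7.16% over all genes tested). Hlf was at -0.04. The genes of the activating arm had values near 0: Arntl 0.04 ± 0.13, Clock 0.00 ± 0.06 and Npas2 0.07 ± 0.14 (log2 ± SE). The part that time of collection has in these values was not tested.

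The same table holds the promoter of a muscle gene that passed. The promoter of Myh4 (chr11:67237562-67237811, forward strand) holds CANNTG, the general E-box that myogenic factors of the MyoD family bind, at 221 and 67 bases before the start (capitals).
Myh4: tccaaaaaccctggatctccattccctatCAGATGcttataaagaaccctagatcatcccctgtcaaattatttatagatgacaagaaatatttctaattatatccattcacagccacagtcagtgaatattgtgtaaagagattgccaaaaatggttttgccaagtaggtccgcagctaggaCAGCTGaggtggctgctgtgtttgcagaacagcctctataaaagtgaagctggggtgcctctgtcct
CANNTG, which includes every CACGTG, stands in 66.2% of all promoters of this length and in 59.1% of those of tested genes. It stands in 14 of the 18 promoters found for the muscle list (77.8%).

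Of 20 listed hypoxia and glycolysis genes 3 were higher with regorafenib (0.349% over all genes tested), all of glucose uptake or glycolysis. Slc2a1, the glucose transporter GLUT1, was at 152, 133, 130 and 185 CPM against 114, 86.9 and 94.3 CPM (0.61 ± 0.14, adjusted p = 0.0301). Pfkl, a phosphofructokinase subunit, was at 71.3, 78.7, 67.8 and 90.3 CPM against 53.7, 51.9 and 58.6 CPM (0.49 ± 0.10, adjusted p = 0.0178). Pgam1, a phosphoglycerate mutase, was at 101 to 106 CPM against 71.4 to 87.8 CPM (0.36 ± 0.08, adjusted p = 0.0245). The groups were apart in all 3 genes. The list median was 0.17 and 12 of 20 members were above 0, so the list as a whole did not move 1 way: Hk2 was at -0.27, Aldoa at -0.29 and Gapdh at -0.24 on the log2 scale, none of which passed. Aldoa was highest in anti-CD40 1 and 2, the muscle-rich libraries. Vegfa (-0.02) did not pass, nor did Car9 (1.29 ± 0.71, adjusted p = 0.326), whose value rested on 3.63 CPM in regorafenib 4.

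None of the genes that report on CD40 itself passed. Cd40 was at 0.745, 1.06, 0.957 and 0.621 CPM with regorafenib and 0.574, 0.765 and 0.582 CPM with anti-CD40 (0.41 ± 0.35, adjusted p = 0.547), on 68 and 39 counts. Traf1, an adaptor that NF-kappa-B induces, was at 2.37 ± 0.231 against 2.21 ± 0.854 CPM (SD; edgeR adjusted p = 0.824). Of 15 tested CD40 and NF-kappa-B targets 14 were above 0 (median 0.34), that is higher in the regorafenib libraries, and none passed. Among 15 tested dendritic cell genes none passed (median 0.13). Cd80, a costimulatory ligand for T cells, was at 2.69, 2.48, 2.65 and 3.81 CPM with regorafenib and at 2.04, 1.64 and 1.95 CPM with anti-CD40. These groups did not overlap, yet the gene did not pass (0.63 ± 0.21, adjusted p = 0.107). Ccr7, which guides mature dendritic cells to lymph nodes, overlapped (0.13 ± 0.39, adjusted p = 0.884). Of 15 B-cell and plasma-cell genes 10 were too low to be tested, and none of the other 5 passed.

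None of 13 tested T-cell and NK-cell genes passed, though 12 were above 0 and the median was 0.55. Cd5, a T-cell receptor modulator, made up much of the list's summed level, at 15.3 ± 2.23 against 13.4 ± 2.89 CPM (SD; 0.18, edgeR adjusted p = 0.533). In 4 of the 13 every regorafenib library was above every anti-CD40 library, against 6.98% of all genes tested. Zap70, the kinase of the T-cell receptor, was at 1.03, 1.15, 1.07 and 1.51 CPM against 0.574, 0.546 and 0.624 CPM, separate but not past the test (1.03 ± 0.34, adjusted p = 0.109). Cd8a, the coreceptor of cytotoxic T cells, was at 0.745, 1.11, 0.563 and 1.24 CPM against 0.522, 0.546 and 0.54 CPM (0.78 ± 0.42, adjusted p = 0.321). The effector genes Gzma, Gzmb and Prf1 were too low to be tested. The list median stayed between 0.46 and 0.69 without anti-CD40 1, 2, 3 or both muscle-rich libraries.

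Of the M2-type macrophage list 1 gene passed, as lower (1.66% over all genes tested). Cd163, the haemoglobin scavenger receptor of resident macrophages, was at 9.4, 8.95, 7.1 and 11.3 CPM with regorafenib and at 15.4, 22.1 and 13.5 CPM with anti-CD40 (-0.88 ± 0.19, adjusted p = 0.023). The 2 groups did not overlap, and anti-CD40 2 was the highest. Of 15 tested M2-type genes 6 were lower in every regorafenib library (7.16% over all genes tested), and the median was -0.47. Siglec1, a sialic-acid receptor (-1.21), the lectin Clec10a (-0.73) and the folate receptor Folr2 (-0.57) were among the 6 without passing. The opposite sign was seen for 4 of the 15, without passing: Arg1, arginase, at 0.45 (adjusted p = 0.102), Chil3 (0.74), Stab1 (0.29) and Maf (0.18). The summed level of the list went the other way from its median, at 460 to 504 CPM with regorafenib and 398 to 445 CPM with anti-CD40. Arg1 gave much of this sum, at a mean of 264 against 194 CPM. Pan-macrophage genes as a list were near 0 (median -0.08, none of 16 passed), as was Csf1r, the receptor that macrophages need to survive (0.02 ± 0.11). The M2 median was -0.21 without anti-CD40 2 and -0.19 without both muscle-rich libraries.

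All 19 type I interferon genes were below 0 with a median of -0.68, yet none passed, and 1 library set the value. Rsad2, the antiviral viperin, had the smallest p: 6.08, 8.95, 5.12 and 5.85 CPM with regorafenib and 12.2, 9.28 and 11.2 CPM with anti-CD40, separate and not past the test (-0.74 ± 0.22, adjusted p = 0.0792). Isg15, a ubiquitin-like protein, shows the more common pattern: 25.8 CPM in anti-CD40 3, but 7.15 and 5.46 CPM in anti-CD40 1 and 2, within the 2.92 to 10.5 CPM of regorafenib. Summed over the list, anti-CD40 3 had 274 CPM, anti-CD40 1 and 2 had 123 and 99.8 CPM, and regorafenib had 65.5 to 143 CPM. Without anti-CD40 3 the list median was -0.01.

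Ptgs2, which encodes the inducible cyclooxygenase COX-2 and stood in the M1-type list, was higher with regorafenib. Its level was 18.1, 7.4, 7.26 and 16.4 CPM against 4.86, 2.79 and 4.74 CPM (1.57 ± 0.36, adjusted p = 0.033). Regorafenib 1 and 4 were both above regorafenib 2 and 3, which were the gland-rich ones. No other of the 8 tested M1-type genes passed (median -0.14, and 0.12 without anti-CD40 1). None of 10 tested neutrophil genes passed (median 0.72). The summed level of the list was 1690, 156 and 1150 CPM in anti-CD40 1, 2 and 3. Anti-CD40 1 thus lay within the 1510 to 3220 CPM of regorafenib. Ngp, a neutrophil granule protein, had 88 counts with regorafenib, most of them from regorafenib 2, and 1 count with anti-CD40, a ratio of 67.4 (exact 95% interval 11.8 to 2690, which covers counting error only).

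Among the epithelial lists 1 gene passed, while most members had differences above 0. Sprr1b, a cornified envelope protein that squamous cells raise under stress, was at 565, 468, 529 and 505 CPM against 349, 239 and 375 CPM, with no overlap (0.69 ± 0.16, adjusted p = 0.0318). It was the only one of 18 tested suprabasal and cornification genes to pass (0.349% of all genes tested passed as higher). All 18 were above 0 (median 0.26). None of the 12 wound-type keratin and alarm genes passed, all 12 were above 0, and the median was 0.52. Anti-CD40 2 was far the lowest library for this list. The mean log2 CPM was 7.69, 6.48 and 7.66 in anti-CD40 1, 2 and 3, and 7.68 to 8.06 with regorafenib. The summed level was 20000, 12200 and 19300 CPM against 21900 to 25400 CPM. Krt6b, a keratin of wounded and hyperproliferating epithelium, was at 7680, 7680, 8870 and 7440 CPM against 6630, 3960 and 5800 CPM (0.53 ± 0.20, adjusted p = 0.146). Krt14, the basal keratin, was at 4140, 3380, 4110 and 4640 CPM against 2700, 1650 and 2880 CPM (0.75 ± 0.21, adjusted p = 0.0698). Both were separate between groups without passing. Basal keratinocyte genes had a median of 0.30 and none of 15 passed. That median was 0.02 with the muscle covariate and 0.07 without the muscle-rich libraries. The proliferation list had a median of 0.25 with none of 20 passing, and Mki67 was at 106 ± 6.83 against 98.1 ± 24.3 CPM (SD; edgeR adjusted p = 0.722). Among single genes, Flrt3, a membrane protein that modulates fibroblast growth factor signals and cell adhesion, was at 8.37, 6.02, 7.43 and 11.9 CPM against 4.75, 3 and 3.66 CPM, and its groups were apart (1.15 ± 0.25, adjusted p = 0.0235). The glycerol and water channel Aqp9 (1.22, adjusted p = 0.0368) and Nppb, brain natriuretic peptide (2.02, adjusted p = 0.046), were also higher by at least 2-fold.

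Of 17 tested kinases that regorafenib inhibits, 1 passed, as lower (1.66% over all genes tested). Ddr2, a receptor for fibrillar collagen, was at 17.8, 15.3, 18.3 and 19.5 CPM with regorafenib and 24.4, 29.2 and 25.2 CPM with anti-CD40, again with no overlap (-0.57 ± 0.13, adjusted p = 0.0297). Kdr, the main receptor for vascular endothelial growth factor, overlapped at 32.8 to 37.6 against 37.1 to 51.5 CPM (-0.34 ± 0.17, adjusted p = 0.291). Pdgfrb, the receptor of pericytes for platelet-derived growth factor, overlapped too, at 22.1 to 29.5 against 24.1 to 37 CPM (-0.32 ± 0.15, adjusted p = 0.238). None of 20 endothelial genes passed (median -0.14), and none of 18 fibroblast and collagen genes (median -0.20). Without the muscle-rich libraries these medians were 0.08 and 0.01. In the pericyte and vascular smooth muscle list 2 of 13 passed as lower (1.66% over all genes tested). Abcc9, the potassium channel subunit SUR2, was at 64 ± 7.11 against 103 ± 23.7 CPM (SD, -0.69, edgeR adjusted p = 0.0141), and striated muscle also uses it. Rgs5, a pericyte regulator of G-protein signals, was at 154, 134, 131 and 126 CPM against 203, 241 and 152 CPM (-0.54, adjusted p = 0.0335), where regorafenib 1 lay just above anti-CD40 3. The list median of -0.25 was -0.05 with the muscle covariate and 0.06 without the muscle-rich libraries, and no member passed without anti-CD40 1 or 2, against 5 without anti-CD40 3.

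**Figure D4:**
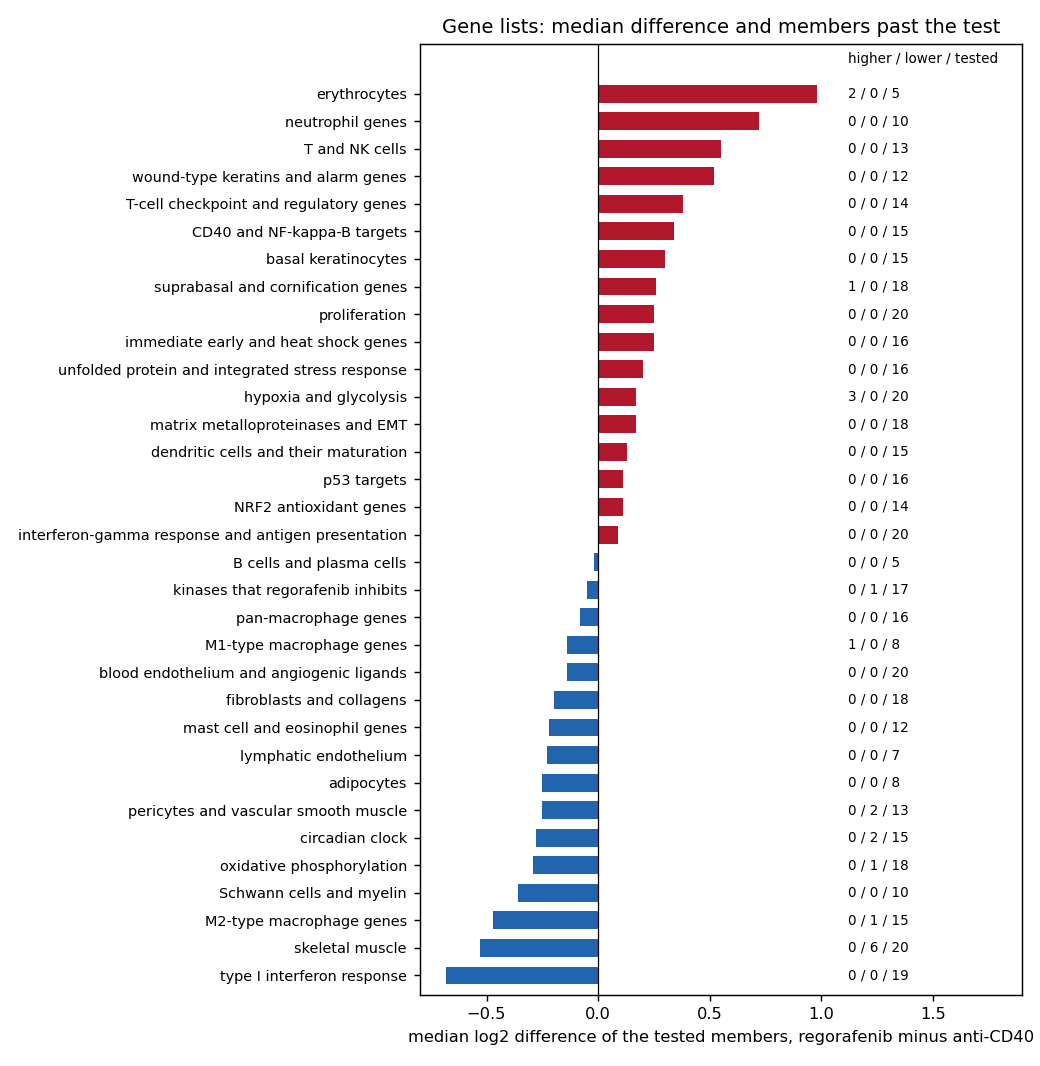
Median log2 difference (regorafenib minus anti-CD40) of the tested members of each gene list, with the number of members higher, lower and tested at the right; the stomach and salivary gland lists, whose medians lie far outside this range, are left out. Skeletal muscle has the most members past the test (6 of 20, all lower), and the lists at both ends include some with none, such as type I interferon genes.

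The widest differences among genes that passed were in stomach and pancreas-type genes. Pgc was at 41.2, 38.2, 5.46 and 51.9 CPM with regorafenib and at 2.35, 0.0546 and 0.0416 CPM with anti-CD40 (5.43 ± 1.05, adjusted p = 0.0306). All regorafenib libraries were above all others, and regorafenib 3 was the lowest of them. Clps, the lipase cofactor colipase, was at 13.9, 11.6, 1.58 and 12.7 CPM against 0.522, 0.0546 and 0.0831 CPM (5.50 ± 0.74, adjusted p = 0.00484). Atp4a, the proton pump of parietal cells, was at 2.81, 1.37, 1.01 and 4.48 CPM against 0.209, 0.109 and 0.0831 CPM (4.15 ± 0.64, adjusted p = 0.00561). Pla2g1b, a secreted phospholipase, had 395 counts against 3, a ratio of 101 (exact 95% interval 34.2 to 491, counting error only; edgeR adjusted p = 0.00775). These were the 4 of 12 tested stomach genes that passed (0.349% of all genes tested passed as higher). The list median was 3.41 (also with Atp4b, at 0 in all anti-CD40 libraries, set to its bound). Gkn1, a gastric mucosal protein, did not pass: anti-CD40 1 had 5.06 CPM and overlapped the 0.394 to 24.6 CPM of regorafenib. Tff2 and Chia1, also in the list, followed the gland-rich libraries. In vehicle, Pgc was at 0 to 0.119 CPM. How these transcripts came into tissue labelled as an oral tumour was not tested.

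Globin genes were higher with regorafenib as well. Hbb-bs, an adult beta-globin, was at 95.5, 63.3, 71.7 and 125 CPM against 43.7, 46.7 and 44.6 CPM (0.98 ± 0.23, adjusted p = 0.0406). Hba-a1, an alpha-globin, was at 39.8, 24.6, 25.6 and 46.6 CPM against 16.4, 17.2 and 14.2 CPM (1.10 ± 0.27, adjusted p = 0.049). In both, regorafenib 1 and 4 were highest and anti-CD40 varied little. All 5 tested erythrocyte genes were above 0 (median 0.98) and 2 passed, against 0.349% of all genes tested that passed as higher. Globin genes have near-identical copies, so reads may be split between Hba-a1 and Hba-a2, and between Hbb-bs and Hbb-bt. Muc5b, the gland mucin, was at 6.19, 5580, 4830 and 4.92 CPM against 2.51, 980 and 13.1 CPM. It followed the gland-rich libraries and did not differ by the test (2.97 ± 3.49, adjusted p = 0.677), and none of 11 tested salivary genes passed (median 2.76).

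Set beside vehicle, regorafenib (4 libraries) and anti-CD40 (3 libraries) differed in the number of genes called. Regorafenib differed from vehicle in 1069 genes (6.32%). This count was 82 with the muscle covariate and 35 with the deposited column number as a block. Anti-CD40 differed from vehicle in 0 genes (0%) with edgeR, 5 with DESeq2 and 2 with limma. With edgeR, 1025 genes had an unadjusted p under 0.05 for anti-CD40 against vehicle (845 expected). The 3 comparisons share libraries, so their values are not independent. The 281 genes lower with regorafenib than with anti-CD40 had a median of -0.43 for regorafenib minus vehicle and 0.10 for anti-CD40 minus vehicle. For the 59 higher genes these medians were 0.39 and -0.06. Genes differed in how the gap was made up. For Sgcd the values were -1.10 (adjusted p = 0.00136) and 0.04, for Ryr1 -0.69 (adjusted p = 0.00267) and 0.01, and for Slc2a1 0.94 (adjusted p = 0.00136) and 0.33. Cd163 gave -0.99 (adjusted p = 0.00656) and -0.11. For Nr1d2 they were -0.29 (adjusted p = 0.116) and 0.40 (adjusted p = 0.799), and for Ppargc1a -0.66 (adjusted p = 0.0754) and 0.56 (adjusted p = 0.814), so neither treatment passed against vehicle although the treatments differed from each other.

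**Figure D5:**
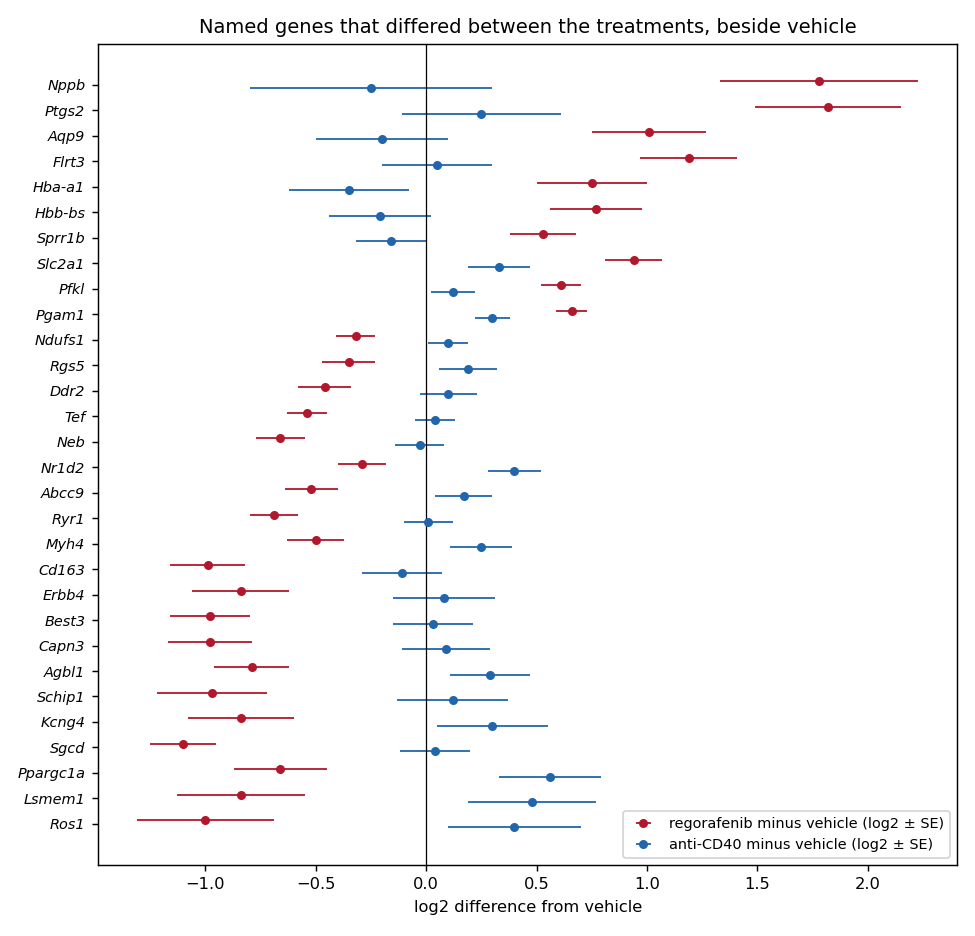
Log2 difference from vehicle (± SE) with regorafenib (red) and anti-CD40 (blue) for the named genes that passed between the treatments, stomach genes left out. Most red points lie further from 0 than the blue point of the same gene; for Nr1d2 (-0.29 and 0.40) the blue point lies further. In many genes, Lsmem1 (-0.84 and 0.48) and Ppargc1a (-0.66 and 0.56) among them, the 2 points are on opposite sides of 0.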

How the data were processed

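RNA from 19 oral tumour libraries was prepared with a stranded kit selecting polyadenylated RNA, per the labels' protocols. The submitters' processing notes name cutadapt 2.4, STAR 2.7.2a and build GRCm38. How reads were counted, on which annotation and with what strand rule, is not stated there, so overlapping, antisense and near-identical genes are uncertain. The authors deposited whole-number read counts for 55487 genes, not normalized. Columns were assigned through the names in the sample labels. Symbols came from GENCODE M21 (55227 IDs matched).

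Counts were filtered with filterByExpr by group (16909 genes, 99.9% of counts), scaled by TMM and fitted with edgeR 4.0.16 in R 4.3.3, 1 mean per group over all 19 libraries, by quasi-likelihood tests. P-values are two-sided and Benjamini-Hochberg adjusted over all tested genes, threshold 0.05. The SE is the absolute log2 difference over the square root of F. The same steps were run on simulated counts. These were drawn independently for each gene and library, so they held no shared variation in muscle or gland content.

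The 35 gene lists, comparisons and members were chosen with earlier results of these data known. Named genes were the 10 widest rises and falls with a mean of at least 1 CPM and an established symbol, up to 3 passing members of each list by p, the 2 of smallest p in lists with none passing and a median beyond 0.5, and 14 fixed genes, of which 1 is not reported here; other genes are said to be chosen after their values were seen, or are given as list members or as the genes that passed in a small count. Alternatives were DESeq2 1.42.0, limma 3.58.1 with sample weights, RLE scaling, no filter, the 2 groups alone, 2 blocks, muscle and gland covariates, length and GC offsets, a fold threshold of 1.2 and leaving out each library. Chosen after the data were seen were leaving out the gland-rich or muscle-rich libraries and scaling without muscle and mitochondrial genes.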

Additional observations from a re-analysis of the deposited data

Results flagged for a closer look

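A single library stood far from the other 3 of its group in 10 of the 110 groups of 4 checked, where chance alone gives about 1 in 20. In the regorafenib group, Ros1 was at 0.688 CPM in library 1 against 0.338 to 0.355 CPM in the others. Regorafenib 2 was high for Kcng4 (3.5 CPM against 2.29 to 2.31) and for Ngp (3.32 CPM against 0.113 to 0.401). Krt6b reached 8870 CPM in regorafenib 3 against 7440 to 7680 CPM, and Cd80 reached 3.81 CPM in regorafenib 4 against 2.48 to 2.69 CPM. In all these genes but Ros1 and Kcng4, which were lower than with anti-CD40, the outlying library lay on the far side from the anti-CD40 group. Among the vehicle libraries, vehicle 2 was high for Muc5b (5350 CPM against 0.746 to 15.2), Dcpp2 (20.6 CPM against 0 to 1.87) and Ifit3 (5.29 CPM against 3.34 to 3.42). Vehicle 3 was high for Mki67 (103 CPM against 89 to 89.7), and vehicle 4 low for Flrt3 (2.44 CPM against 3.99 to 4.28). The anti-CD40 group, with 3 libraries, was not checked.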

How the results depend on the processing

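The count of 340 genes between regorafenib and anti-CD40 was 987 with DESeq2, 1761 with limma and sample weights, 678 with a salivary gland covariate, 2 in a fit of the 2 groups alone, 24 with the deposited column number as a block, 0 with the skeletal muscle covariate and 6 with a fold threshold of 1.2. Leaving out 1 library gave 0 to 1776. Chosen after the data were seen, leaving out the 3 gland-rich libraries gave 6. Leaving out the 2 muscle-rich libraries left 1 library in the anti-CD40 group, so no count is given for it. The lower share of calls, 82.6%, was 71% with DESeq2, 63% with limma, 67.4% with the gland covariate, 66.7% with the column block, 50% with the fold threshold, and 68.6% and 66.7% without anti-CD40 3 and regorafenib 3. RLE scaling, no filter, length and GC offsets and scaling without muscle and mitochondrial genes gave 387, 347, 350 and 335. Of the first 340 calls, 339, 287, 254 and 319 were among these.

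The 1069 genes of regorafenib against vehicle became 1684 with DESeq2, 1673 with limma, 1649 with the gland covariate, 35 with the column block, 82 with the muscle covariate and 22 with the fold threshold, and 269 to 1139 with 1 library left out. Anti-CD40 against vehicle, 0 genes, gave 1 with RLE scaling, 1 without the filter, 5 with DESeq2, 2 with limma, and 0 to 1 with 1 library left out. The causes were not tested.

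A replicate block gave 123 calls. Same-numbered libraries 1, 2 and 3 of the groups correlated at 0.279, 0.444 and 0.0314; regorafenib 1 and 2 were nearest their own number, but regorafenib 3 was nearest anti-CD40 2 (0.214), so the numbers were not taken as pairs.

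The single named genes whose values changed sign did not pass. Traf1 was at -0.12 with limma and -0.07 without gland-rich libraries. Ccr7 was at -0.34 with the muscle covariate, 0 without gland-rich and -0.35 without muscle-rich libraries. Pdgfrb was at 0.06 without muscle-rich libraries. Mki67 was at -0.09 with the muscle covariate, -0.10 without gland-rich and -0.25 without muscle-rich libraries. Muc5b was at -0.77 with the gland covariate and -0.51 without gland-rich libraries. With 1 library left out, Traf1 ran from -0.09 to 0.45, Ccr7 from -0.14 to 0.49, and Mki67 from -0.03 to 0.32.

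Medians of lists near 0 changed sign too: without the muscle-rich libraries the endothelial list went from -0.14 to 0.08, fibroblasts from -0.20 to 0.01, pericytes from -0.25 to 0.06, M1-type genes from -0.14 to 0.36 and pan-macrophage genes from -0.08 to 0.01. Low counts limit several genes: Cd40 and Cd8a rest on 33 to 76 counts a group, Ros1 and Schip1 on 34 to 89, and Atp4a and Clps on 8 and 13 counts with anti-CD40.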

Other observations

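Genes of cholesterol synthesis were seen among the 59 genes higher with regorafenib, and a list of 23 such genes was drawn up after their values were seen, so it carries no test. Of the 23, 6 passed as higher (0.349% over all genes tested) and none as lower, all 23 were above 0, and the median was 0.32. Nsdhl, a sterol dehydrogenase, was at 33, 31.5, 26.7 and 30 CPM with regorafenib and 20, 21.2 and 23.2 CPM with anti-CD40 (0.50 ± 0.09, edgeR adjusted p = 0.0124). The others were Msmo1 (0.43), Cyp51 (0.44), Sqle (0.35), Acat2 (0.45) and Stard4, a sterol carrier (0.47). Beside vehicle, the list's median was 0.18 for regorafenib and -0.16 for anti-CD40, with 2 genes called in the first. The median was 0.26 with the muscle covariate and 0.14 without the muscle-rich libraries, and no member passed in either.

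Genes with some of the smallest p among those lower with regorafenib, again picked after their values were seen, included Dmd, which encodes dystrophin (57.8, 60.7, 56.4 and 50.9 CPM against 96.1, 111 and 78.7 CPM, -0.75 ± 0.10, edgeR adjusted p = 0.00484), and Klhl41, a muscle kelch protein (-0.64, adjusted p = 0.00484). Akap6, which anchors kinase A at muscle and heart membranes (-0.88, adjusted p = 0.00484), and Abcd2, a peroxisomal fatty acid transporter (-0.82, adjusted p = 0.00542), were others. Mef2c, a muscle transcription factor, was at -0.68 (adjusted p = 0.0124).

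Xist, the RNA of the inactive X chromosome, had 150 counts in anti-CD40 1 and 2 to 8 in each of the other 6 libraries, while Ddx3y had 1112 to 1758 counts in all 7. The source of the Xist counts, which could include RNA of another sample, was not tested, and without anti-CD40 1 the calls between the treatments numbered 49.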
